A study of Homo sapiens with 3 samples.

Results

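The 10 genes described here are highly expressed housekeeping genes: ACTB, GAPDH, EEF1A1, PKM, LDHA, HSPA8, HSP90AB1, ENO1, TUBA1B and FTH1. Around each of them the binding sites of XPB and XPD were read from a pair of peak lists made by chromatin immunoprecipitation and sequencing (ChIP-seq) in HT1080, a widely used line of human fibrosarcoma cells. A gene was called occupied by a protein when a peak summit of that protein's list lay within 2 kb of the gene start, at a fixed hg19 position for each gene. By this rule 13 of 21555 XPB peaks and 7 of 14570 XPD peaks belonged to the 10 genes. The groups were 1 XPB ChIP library, 1 XPD ChIP library and 1 input library that was not enriched, all from 1 pool of crosslinked chromatin and with no treatment named in the labels. The XPB antibody was a rabbit polyclonal from Novus Biologicals and the XPD antibody a rabbit polyclonal from Santa Cruz Biotechnology; the protocol text common to the samples names an antibody against CSB instead, and the antibody fields were followed. Expression was not measured in these files, so the label "highly expressed" was not checked, and no marker of the cell line could be read from peaks.

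XPB and XPD are the helicase-like subunits of TFIIH, a general factor of RNA polymerase II transcription and of nucleotide excision repair. At a promoter, XPB drives the opening of DNA at the transcription start, while XPD mainly links the core of the factor to its kinase module; in repair, XPD unwinds the DNA around a lesion. Housekeeping genes are transcribed in nearly all cell types, often from GC-rich promoters, and their starts are loaded with the polymerase II initiation machinery.

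XPB was called at 8 of the 10 gene starts and XPD at 5, and each of these 5 was also an XPB gene. At scores of at least 200, XPD was left at GAPDH and EEF1A1 only, 2 genes, and XPB at 8. With summits within 500 bp XPB was at 5 genes and both proteins at 3, and both were also at 3 where the peak interval had to cover the start. The genes with both within 2 kb were EEF1A1, GAPDH, HSP90AB1, LDHA and ACTB. PKM, ENO1 and TUBA1B had XPB without XPD, HSPA8 and FTH1 had neither, and no gene had XPD without XPB. As background, 2.71% of 745946 windows of 4 kb, the width of the region searched around each start, held an XPB summit, 1.86% held an XPD summit and 0.756% held both. Windows were laid end to end over the span of the lists, so most hold no gene start. At scores of at least 200, 1.19% of them held an XPB summit and 0.734% an XPD summit. No share was computed for the 500 bp or covering settings, so those counts have no matching background. Starts of other genes were not used here, and whether the 10 genes differ from gene starts in general was not tested. With 1 library for each protein there is no replicate check and no p-value; absence from a list means only that no peak passed the caller's threshold.

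**Figure D1:**
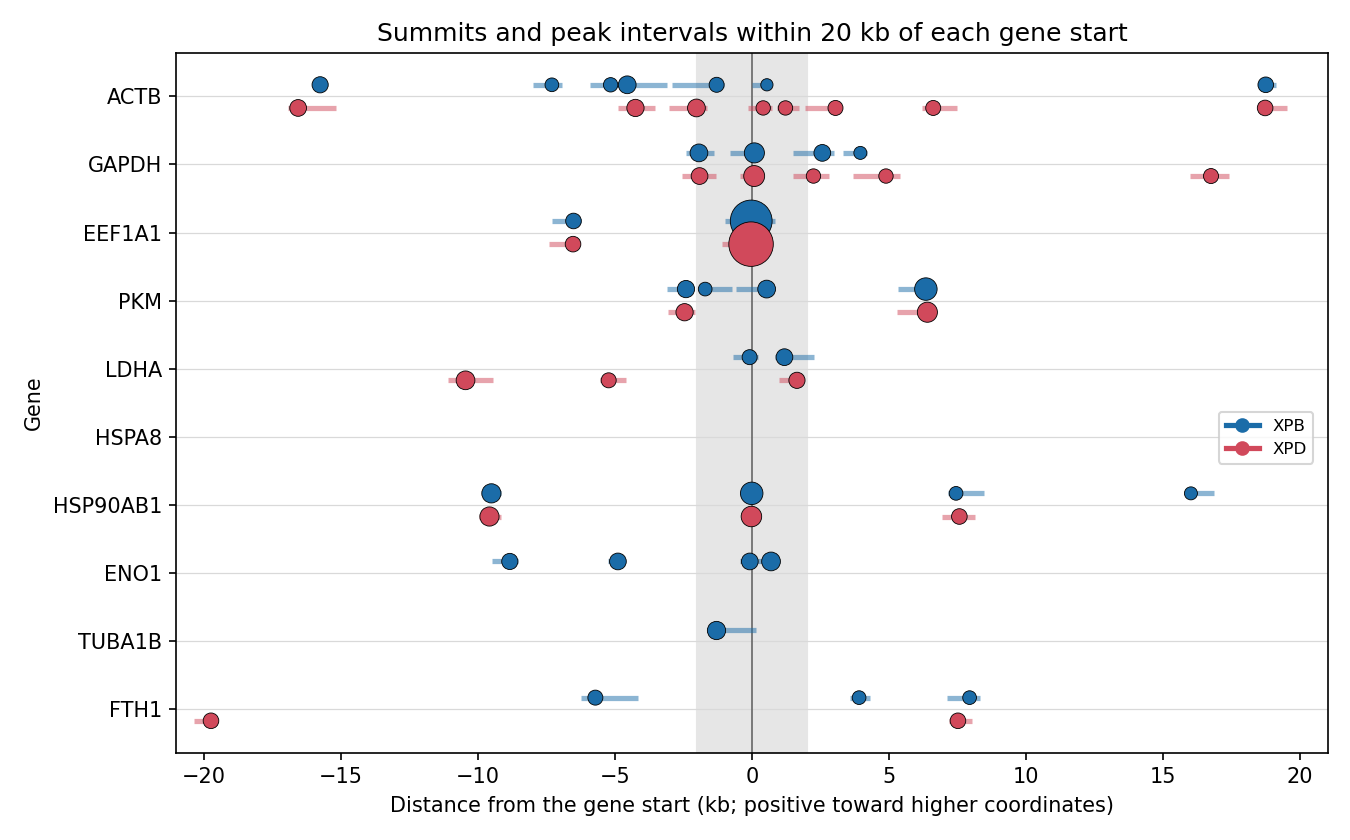
Map of all XPB (blue) and XPD (red) summits within 20 kb of the 10 gene starts, by distance in kb. Points are summits, their area grows with summit height, bars are peak intervals and the grey band is the region within 2 kb; EEF1A1 has the tallest summits and HSPA8 has none.

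The immediate surroundings of the genes were richer in peaks than the genome as a whole, yet poorer than the starts. Of 240 windows of 4 kb that flanked the 10 starts within 50 kb, 13.8% held an XPB summit and 12.5% an XPD summit. The highest number of genes with an XPB summit at any flanking position was 4, at -20, -8 and -4 kb, against 8 at the start. For XPD the contrast with the highest flanking position was small, 4 genes at 8 kb against 5 at the start. The median flanking position had a summit at 1 gene for XPB and at 1 gene for XPD. At scores of at least 200 the XPD count at the start was 2, and the flanks were not counted at that setting. Distances are signed here by the coordinate, and positive values lie toward higher coordinates.

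**Figure D2:**
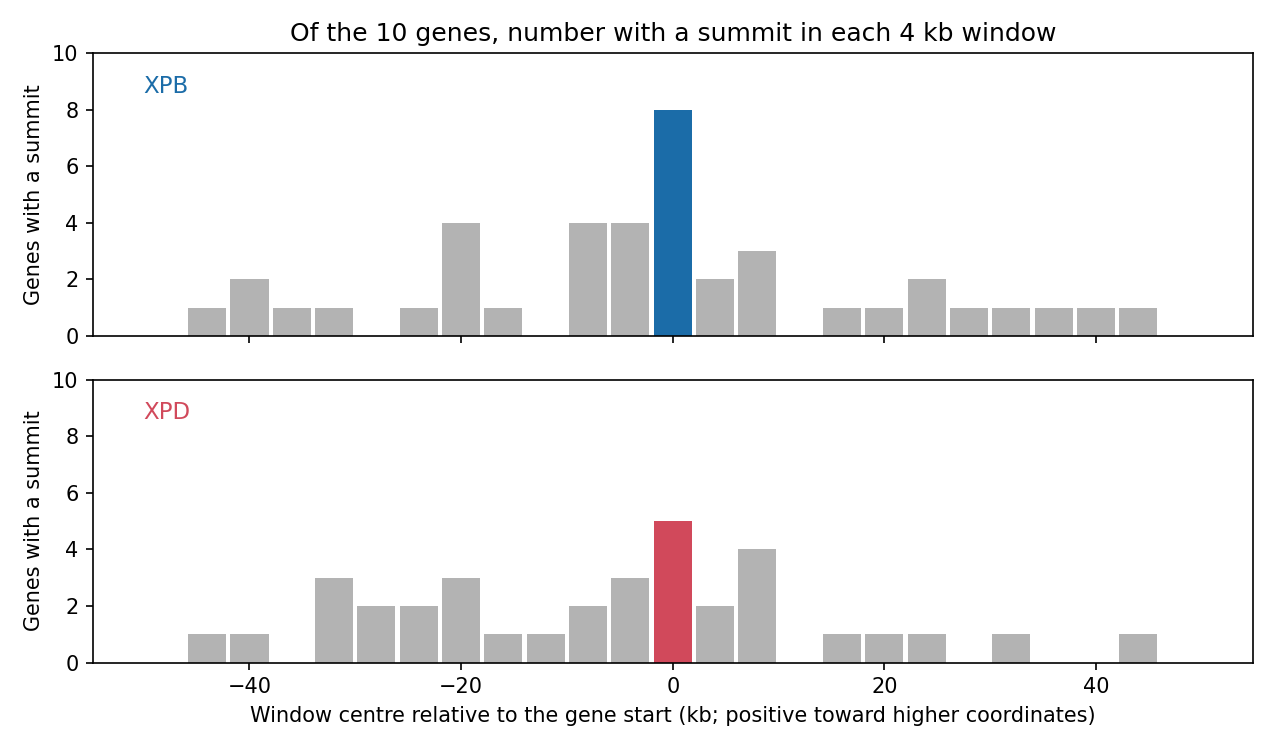
Number of the 10 genes with a summit in each 4 kb window, by distance of the window centre from the gene start in kb, for XPB (top) and XPD (bottom). The coloured bar is the window at the start, with 8 genes for XPB and 5 for XPD; no grey flanking bar exceeds 4.

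EEF1A1, the elongation factor that delivers aminoacyl-tRNA to the ribosome, carried by far the strongest signal of the set. The XPB peak spanned 74229757 to 74231595 on chromosome 6 and rose to 107 fragments (exact 95% Poisson interval 87.7 to 129), with a score of 2926. The XPD peak spanned 74229664 to 74231095 and rose to 123 fragments (102 to 147), with a score of 2702. The height is the number of overlapping sequenced fragments at the summit, the score is the p-value of the peak caller on a scale of -10 log10, and the intervals cover counting error only. In its own list the XPB peak ranked 12 by score and 23 by height, and the XPD peak ranked 9 by score and 17 by height. The gene start is at 74230755, and the XPB and XPD summits lay 28 and 34 bp downstream of it and 6 bp from each other. A low second site stood 6513 bp downstream for XPB and 6530 bp downstream for XPD, with 12 fragments in each list.

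The XPB peak was lower at LDHA, ENO1 and TUBA1B than at EEF1A1, and at TUBA1B its summit lay 1297 bp downstream of the start. Their promoters are shown together with that of EEF1A1, where both helicases peaked at the start. Each is the stretch of 250 bases before the start in RefSeq's GRCh38.p14 promoter table, on the gene's own strand, 5′ to 3′; the table's starts were not matched to the hg19 positions. The positions are chr6:73521033-73521282 on the minus strand for EEF1A1, chr11:18394313-18394562 on the plus strand for LDHA, chr1:8878687-8878936 on the minus strand for ENO1 and chr12:49131396-49131645 on the minus strand for TUBA1B. Capitals mark GGGCGG, the core of the GC box bound by SP1-type factors, or its complement CCGCCC.
EEF1A1: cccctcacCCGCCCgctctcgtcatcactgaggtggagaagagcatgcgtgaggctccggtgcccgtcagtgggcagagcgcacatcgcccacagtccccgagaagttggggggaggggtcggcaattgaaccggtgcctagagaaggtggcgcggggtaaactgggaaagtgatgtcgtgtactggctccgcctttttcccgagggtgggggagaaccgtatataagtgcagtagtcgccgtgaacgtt
LDHA: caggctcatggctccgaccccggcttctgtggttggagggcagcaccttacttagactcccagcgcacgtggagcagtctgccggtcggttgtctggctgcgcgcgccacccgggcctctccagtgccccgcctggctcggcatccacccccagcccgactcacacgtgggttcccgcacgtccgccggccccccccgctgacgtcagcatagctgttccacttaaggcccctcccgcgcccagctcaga
ENO1: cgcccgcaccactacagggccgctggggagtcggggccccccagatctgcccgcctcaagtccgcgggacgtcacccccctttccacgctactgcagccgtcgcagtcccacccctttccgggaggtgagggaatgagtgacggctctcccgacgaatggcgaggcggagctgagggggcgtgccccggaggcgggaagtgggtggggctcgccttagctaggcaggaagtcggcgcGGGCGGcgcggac
TUBA1B: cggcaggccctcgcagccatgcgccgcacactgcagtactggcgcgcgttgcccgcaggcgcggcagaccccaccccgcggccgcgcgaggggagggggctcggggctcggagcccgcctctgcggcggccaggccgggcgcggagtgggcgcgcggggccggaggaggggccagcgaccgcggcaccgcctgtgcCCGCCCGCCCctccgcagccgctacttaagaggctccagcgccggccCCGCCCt
The table held 11 windows for 8 of the 10 genes, with more than 1 window for LDHA and HSP90AB1; ACTB and FTH1 had none. Searched on both strands, GGGCGG occurred in 10 of the 11 windows, the exception being the LDHA window printed above, against 42.6% of all 35116 windows of the same length. The members' windows were 56.4 to 81.2% G and C, with a median of 65.6%, and the median of all windows was 58.0%. The exact letters TATAAA were in none of the 11 windows and in 10.7% of all windows. Variants were not counted, such as the letters TATATAA in the printed EEF1A1 window, so the windows are not shown to lack a TATA box. CCAAT was in the windows of HSPA8 and PKM, and in 32.0% of all windows. The G-quadruplex pattern, 4 runs of at least 3 G parted by 1 to 7 bases, was in the windows of GAPDH and PKM, and in 23.5% of all windows. HSPA8, with no peak of either helicase within 20 kb, had GGGCGG, as did at least 1 window of each of the 7 occupied genes in the table. A match of letters is a description and not a binding site, and motifs can overlap.

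The glycolytic genes were GAPDH, PKM, ENO1 and LDHA; all 4 had an XPB summit within 2 kb, and GAPDH and LDHA also had XPD. GAPDH, the dehydrogenase in the middle of the pathway, had a coincident pair at its start. Its XPB summit, in the peak on chromosome 12 from 6642871 to 6643906, had 21 fragments (13.0 to 32.1) and a score of 563, and lay 87 bp downstream of the start at 6643657. The XPD summit, in the peak from 6643236 to 6644064, had 23 fragments (14.6 to 34.5) and a score of 303, and lay 80 bp downstream, 7 bp from the XPB summit. Another coincident pair stood upstream at 1936 bp for XPB, with 16 fragments and a score of 486, and at 1914 bp for XPD, with 14 fragments and a score of 388. This pair lies just inside the limit of 2 kb, on the side where RefSeq's gene order places NCAPD2, a condensin subunit gene. Downstream of the start and outside the limit, further summits lay at 2566 and 3954 bp for XPB and at 2243 and 4889 bp for XPD. GAPDH thus had 4 summits of each protein within 10 kb; 0.221% of 149197 windows of 20 kb held at least 4 XPB summits and 0.103% at least 4 XPD summits, a count taken after the values were seen.

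PKM, which makes the last step of glycolysis, had XPB on both sides of its start. The peak on chromosome 15 from 72522968 to 72524290 covered the start at 72523547, with its summit 535 bp upstream, 16 fragments (9.15 to 26.0) and a score of 431. The other XPB summit lay 1708 bp downstream, with 9 fragments and a score of 150, the lowest score that the list holds being 150. Neither of these peaks overlapped an XPD peak. The nearest XPD summit was 2460 bp downstream, outside the limit, with 15 fragments and a score of 211. It formed a pair with an XPB summit at 2409 bp that also had 15 fragments. A taller pair lay upstream, toward PARP6, a gene of the poly(ADP-ribose) polymerase family: 27 fragments for XPB at 6345 bp and 21 for XPD at 6400 bp. The absence of XPD at PKM is therefore an absence from the 2 kb region only.

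ENO1, the enolase of the pathway, had XPB peaks at its start and no XPD peak within 20 kb. The XPB peak on chromosome 1 from 8938329 to 8939140 covered the start at 8938780, with its summit 79 bp downstream, 14 fragments (7.65 to 23.5) and a score of 218. A narrower peak of 432 bp had its summit 695 bp upstream, with 18 fragments (10.7 to 28.4) but a score of only 166. Further XPB summits of 14 and 13 fragments lay 4892 and 8837 bp downstream. The nearest XPD summit was 20500 bp away, with 17 fragments and a score of 197. ENO1 thus had 4 XPB summits within 10 kb and no XPD summit in the same region.

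LDHA, which turns pyruvate into lactate, had XPB at its start and overlapping XPB and XPD peaks downstream of the start used here. RefSeq also gives LDHA another start on the downstream side, after the window chr11:18396101-18396350 of GRCh38.p14, which holds 4 GGGCGG. That start was not matched to hg19, so its distance from the downstream peaks was not computed. An XPB summit of 11 fragments (5.49 to 19.7) with a score of 161 lay 86 bp upstream of the start, which is at 18415936 on chromosome 11, and no XPD peak overlapped it. A second XPB summit of 14 fragments with a score of 407 lay 1184 bp downstream. The XPD summit lay 1641 bp downstream, with 13 fragments (6.92 to 22.2) and a score of 154, in a peak that overlapped the second XPB peak. These summits were 457 bp apart, and only 17.2% of all 5536 pairs of mutually best overlapping peaks were farther apart. XPD summits without XPB lay 5229 bp upstream (11 fragments) and 10453 bp upstream (18 fragments, score 263), toward GTF2H1, itself the gene of a TFIIH subunit.

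Among the chaperone genes, HSP90AB1 had both helicases within 21 bp of the start used here and HSPA8 had neither. HSP90AB1 encodes the constitutive form of HSP90 and has 3 windows in RefSeq's promoter table, whose starts were not matched to hg19. Its XPB summit lay 10 bp upstream of the start, which is at 44214848 on chromosome 6, with 27 fragments (17.8 to 39.3) and a score of 329. The XPD summit lay 21 bp upstream, with 22 fragments (13.8 to 33.3) and a score of 177. The summits were 11 bp apart. Of the 10 genes it had the second tallest summit for XPB and the third tallest for XPD. In the XPB list 98.0% of peaks had lower summits, and in the XPD list 94.3%. The scores placed the same peaks lower, with 88.6% of XPB and 42.6% of XPD peaks below them. The peaks were 652 and 588 bp wide, against medians of 833 and 937 bp over the whole lists. Pairs also stood 9509 and 9579 bp upstream, toward SLC29A1, with 19 fragments in each list, and 7446 and 7567 bp downstream, toward SLC35B2, with 9 and 12.

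HSPA8, the constitutive HSP70 family chaperone, had no summit of either list within 20 kb of its start at 122932844 on chromosome 11. The nearest XPB summit was 24801 bp away, a low one of 7 fragments with a score of 157. The nearest XPD summit was 173992 bp away, with 13 fragments and a score of 188. Of the 24 flanking windows of 4 kb within 50 kb of HSPA8, 2 held an XPB summit and none an XPD summit.

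The cytoskeletal genes were ACTB and TUBA1B. ACTB, which encodes beta-actin, had the densest group of peaks, low in height and spread over several kb. Within 2 kb of its start, at 5570232 on chromosome 7, the XPB summits lay at 544 bp (7 fragments, 2.81 to 14.4, score 161) and at -1290 bp (11 fragments, 5.49 to 19.7, score 594). The XPD summits lay at 409 and 1222 bp, with 10 fragments (4.80 to 18.4) each and scores of 181 and 176. These distances are signed by the coordinate, since the strand was not in the table used. An XPD summit of 16 fragments with a score of 471 fell just outside the limit, at -2027 bp, in a peak that overlapped the XPB peak at -1290 bp. The strongest peaks near ACTB by score lay further along: at -4553 bp for XPB (16 fragments, score 982, rank 144) and at -4252 bp for XPD (15 fragments, score 630, rank 209). In all, 5 XPB and 6 XPD summits lay within 10 kb of the start. Of the 20 kb windows over the genome, 0.0784% held at least 5 XPB summits and 0.00737% at least 6 XPD summits, again counted after the values were seen.

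TUBA1B, an alpha-tubulin gene, had a single XPB peak and no XPD peak within 20 kb. The XPB peak ran on chromosome 12 from 49523669 to 49525447 and covered the start at 49525304, but its summit lay 1297 bp downstream, with 17 fragments (9.90 to 27.2) and a score of 211. The nearest XPD summit was 20658 bp away, with 15 fragments. The flanks were not empty: 5 of 24 windows held an XPB summit and 4 an XPD summit within 50 kb.

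FTH1, the heavy chain of the iron store ferritin, had no summit within 2 kb of its start at 61735132 on chromosome 11. The nearest XPB summit was at 3908 bp, toward higher coordinates, with 9 fragments and a score of 169. A wider XPB peak of 2065 bp at -5715 bp had 11 fragments and a score of 419. The nearest XPD summit was at 7515 bp, with 12 fragments and a score of 185, in a peak that overlapped an XPB peak with its summit at 7940 bp and 9 fragments. That site lies on the side where RefSeq's gene order places INCENP. Unlike HSPA8, FTH1 therefore had peaks of both proteins within 10 kb.

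**Figure D3:**
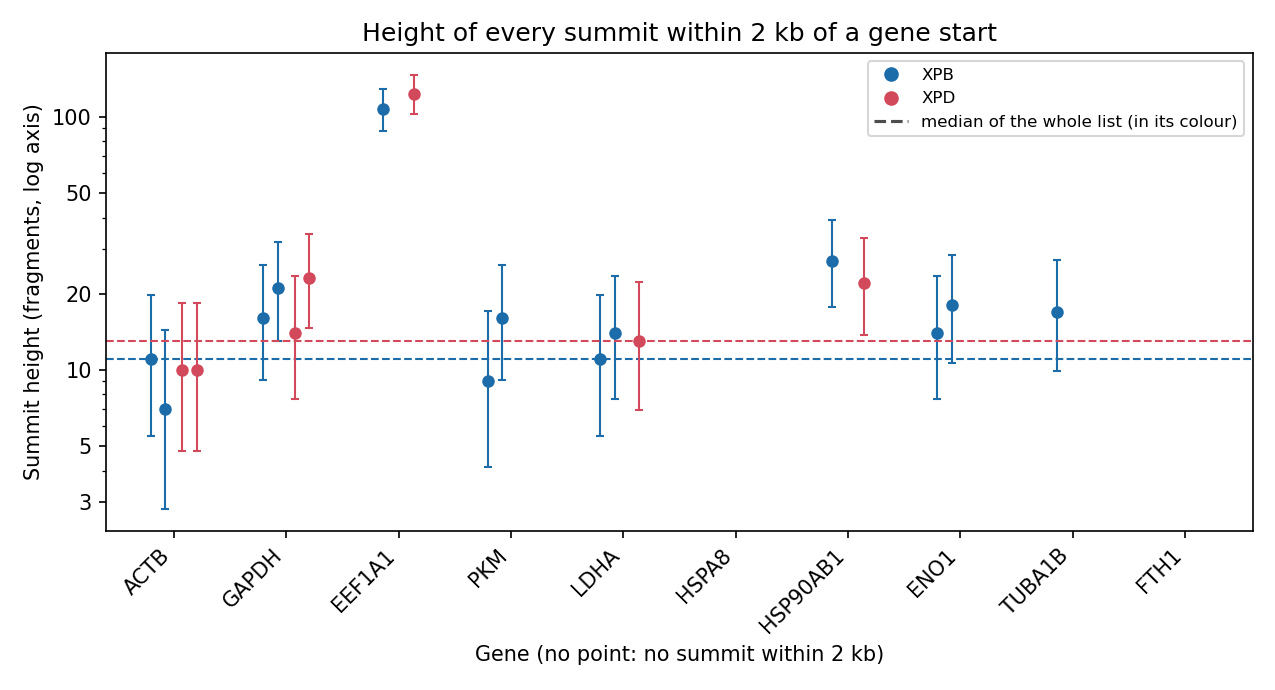
Height of each XPB (blue) and XPD (red) summit within 2 kb of the 10 gene starts, in fragments on a log axis, with exact 95% Poisson intervals; dashed lines are the medians of the whole lists (11 for XPB, 13 for XPD). EEF1A1 stands at 107 and 123, and the remaining summits lie between 7 and 27.

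The members' summits spanned nearly the whole range of places in the lists, from the top at EEF1A1, HSP90AB1 and GAPDH to near the bottom at ACTB. The 13 XPB summits ranged from 7 to 107 fragments with a median of 16, against 11 for the whole list, and 9 of them were above that median. The 7 XPD summits ranged from 10 to 123 with a median of 14, against 13, and 4 were above it. In order of the tallest XPB summit, EEF1A1 (107) was followed by HSP90AB1 (27), GAPDH (21), ENO1 (18), TUBA1B (17), PKM (16), LDHA (14) and ACTB (11). The order for XPD was EEF1A1 (123), GAPDH (23), HSP90AB1 (22), LDHA (13) and ACTB (10). The counting intervals of neighbours in both orders overlapped except between EEF1A1 and the gene after it. Over the occupied genes, the tallest XPB summit exceeded a median of 88.5% of its list and the tallest XPD summit a median of 94.3%. By score the same peaks exceeded 94.3% of the XPB list and 42.6% of the XPD list, so the place of the XPD peaks depended on the measure. Over all member peaks, and not only the tallest of each gene, the median place by height was 83.7% for the 13 XPB peaks and 58.2% for the 7 XPD peaks.

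Height and score parted in both directions. The XPB peak of ACTB at -1290 bp, 1883 bp wide, exceeded 39.7% of the list in height and 97.7% in score. The XPB peak of ENO1 at 695 bp upstream, 432 bp wide, exceeded 89.8% in height and 26.7% in score. The XPD peak of HSP90AB1 was like that of ENO1 in this respect. In these examples the wide peak had the high score and the narrow ones the low score, but other member peaks went the other way. The XPB peak of TUBA1B, 1779 bp wide, exceeded 87.1% in height and 62.9% in score. The XPB peak of PKM at 1708 bp downstream, 1179 bp wide, exceeded 11.7% in height and 0.195% in score. A link of width with score was not tested. In the XPB list 6 of the 13 member peaks were in the top 10% by score, and in the XPD list 2 of 7, at GAPDH and EEF1A1.

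**Figure D4:**
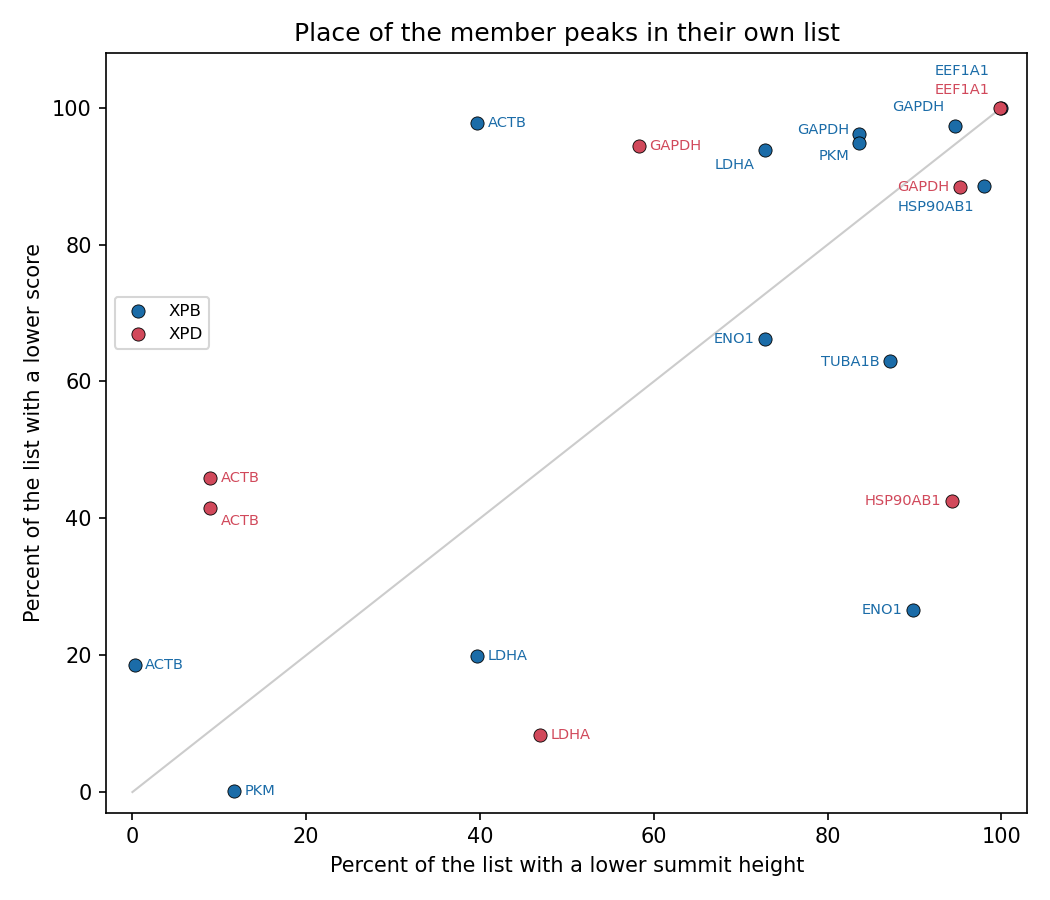
Place of the 20 member peaks within their own list: percent of the list with a lower height (horizontal) and with a lower score (vertical), XPB in blue and XPD in red. EEF1A1 is at the top in both; ACTB lies above the diagonal, and the XPD peak of HSP90AB1 and an XPB peak of ENO1 lie below it.

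Summits of XPB and XPD coincided closely at 3 genes and lay apart at others. Of the 13 XPB member peaks, 7 overlapped an XPD peak by at least 1 bp, against 26.6% of all XPB peaks, and of the 7 XPD member peaks 6 overlapped an XPB peak, against 38.7% of all XPD peaks. The members' share was not compared with that of peaks of the same height. There were 6 pairs with both summits within 2 kb. In 4 of them, at EEF1A1, GAPDH (both of its pairs) and HSP90AB1, the summits were 6 to 22 bp apart. The ACTB pair was 135 bp apart and the LDHA pair 457 bp. Over all 5536 pairs the median distance was 97.5 bp, and 50.7% were within 100 bp, so the share of 4 in 6 is near that of the lists. Of the 13 other pairs with a summit within 20 kb of a start, 5 were within 100 bp; among the rest were the ACTB peaks at -1290 bp for XPB and -2027 bp for XPD, with summits 737 bp apart. Fragments of 400 to 700 bp were selected for the libraries, so distances far below that length are not resolved finely.

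At the shared sites no departure of the XPD to XPB height ratio from that of the lists as a whole was detectable. Each ratio of XPD to XPB height was set against the median ratio of all pairs (log2 0.11, interquartile range -0.19 to 0.38), since depth is unknown. Relative to that median, the log2 ratio was 0.09 at EEF1A1 (95% counting interval -0.29 to 0.48), 0.02 at the start of GAPDH (-0.89 to 0.95) and -0.40 at HSP90AB1 (-1.28 to 0.46). It was -0.30 at the upstream pair of GAPDH (-1.45 to 0.83), -0.21 at LDHA (-1.42 to 0.98) and 0.41 at ACTB (-1.13 to 2.04). All 6 intervals included 0, as did those of the 13 other pairs with a summit within 20 kb, whose values ran from -0.59 to 0.43 and whose intervals all include a 2-fold difference. The intervals of HSP90AB1, the upstream pair of GAPDH, LDHA and ACTB, 4 of the 6, also include a 2-fold difference, so a difference of that size cannot be told from none there. Those of EEF1A1 and of the start of GAPDH do not reach it.

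**Figure D5:**
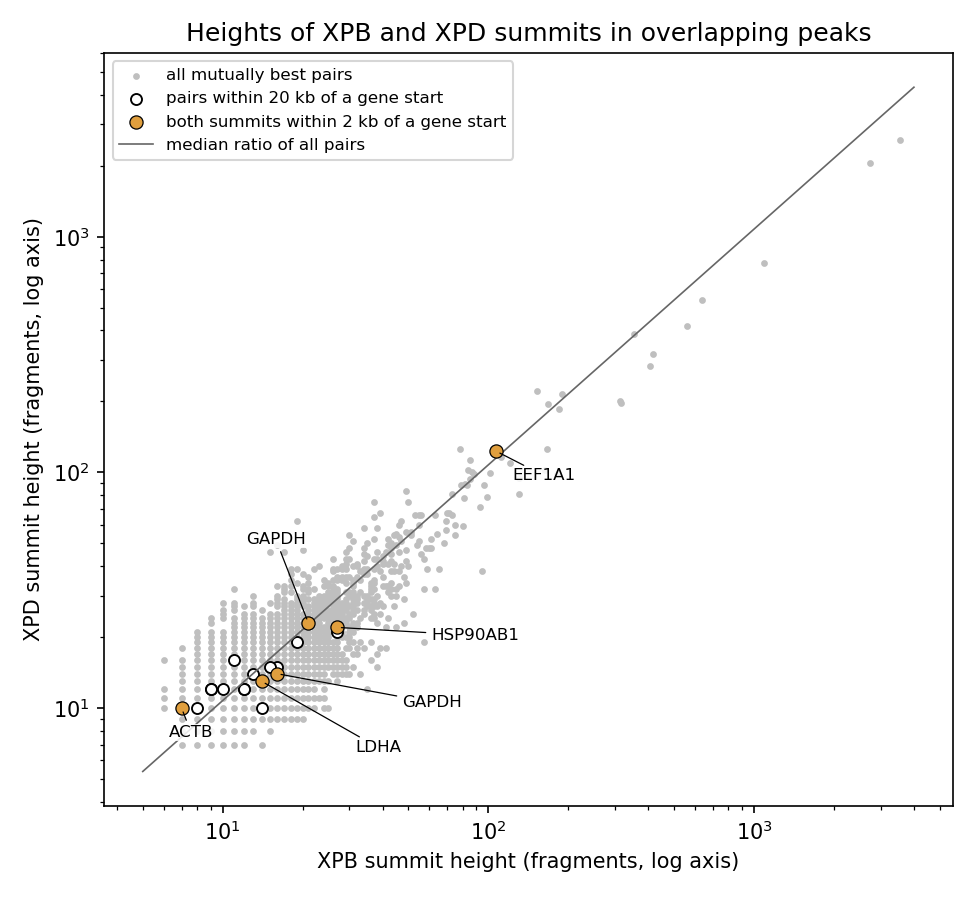
XPB against XPD summit height in fragments, both on log axes, for all 5536 mutually best overlapping pairs (grey), the pairs within 20 kb of a gene start (open) and the 6 pairs with both summits within 2 kb (orange). The line is the median ratio of all pairs; EEF1A1, at 107 and 123, lies close to it.

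Several limits apply to all of these values. The input library was not compared at the genes, so a background common to both ChIPs is not separated from binding. Several of the genes, among them ACTB, GAPDH, EEF1A1, HSPA8, TUBA1B and FTH1, belong to families with processed copies or near-identical relatives elsewhere in the genome. The remaining genes are not thereby free of this limit. How reads with several matches were handled is not given in the sources used here. The part of this in the presence or absence of a peak was not tested.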

How the data were processed

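ChIP-seq libraries of XPB and XPD from HT1080 cells were used as deposited peak lists, 1 for each antibody. Bowtie 0.12.7, MACS 1.4 and the hg19 build are named in the submitters' processing notes; the control library and the thresholds are not given in the sources used here. The deposited score was taken as the caller's p-value on a scale of -10 log10 and the deposited signal as the pileup height of fragments at each summit, following the usual MACS layout; neither is scaled to depth, and the depth of the libraries is unknown. The lowest deposited score was 150. Positions are 1-based hg19 coordinates.

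Gene starts were the hg19 positions set with the choice of genes; no hg19 annotation was used here, so the planned lists of other glycolytic, chaperone, cytoskeletal and elongation factor genes were not used. All 10 genes are named. The genes and lists were chosen with earlier results of these data known. Names, neighbours and promoter sequences came from RefSeq tables of GRCh38.p14, where 10 of 10 genes matched by symbol in the gene table and 8 in the promoter table, which also gave the strand. Counts of members were set beside 4 kb windows over the genome and in flanks of 50 kb. A pair consisted of an XPB and an XPD peak of which each had its largest overlap with the other. Height intervals are exact Poisson and ratio intervals exact binomial, at 95%. Functions were tested on simulated lists. Software was Python 3.11.15 with scipy 1.17.1, pandas 2.3.3, numpy 2.4.6 and, for plots, matplotlib 3.10.9. No group had replicates, so no test was run.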

Additional observations from a re-analysis of the deposited data

How the results depend on the processing

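The number of genes called moved by more than 1.5 times under some settings. With summits within 500 bp, XPB was at 5 genes and both proteins at 3 (GAPDH, EEF1A1 and HSP90AB1). With the peak interval required to cover the start, both were at 3. With scores of at least 200 or at least 300, XPD and both proteins were at 2 genes (GAPDH and EEF1A1) in either case, while XPB was at 8 genes and at 6 (without ENO1 and TUBA1B). The remaining distances (1, 5 and 10 kb) and lists of the same length gave 7 to 9 genes for XPB and 4 to 7 for XPD. On autosomes only, 2.90% of the background windows held an XPB summit and 1.99% an XPD summit. At scores of at least 200 these shares were 1.19 and 0.734%. No background share was computed for the other alternative settings of the gene counts. The median place of the tallest member summit (88.5% for XPB and 94.3% for XPD) was 94.3 and 42.6% by score, and 85.4% for XPB with the summit nearest the start. Centring lowers every log2 ratio by the same 0.11, which is less than each counting interval reaches on either side. It therefore could not move any of the 6 outside its interval and is no check of the ratios. No paired analysis was possible because each antibody had 1 library, so no replicate could be left out either. No listed score is under 150, so absence can be read only as no peak above that threshold.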
